A study of Homo sapiens with 24 samples.

Results

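Cells treated with an extract of Pulsatilla chinensis (P. chinensis) were compared directly with cells treated with an extract of Polyporus umbellatus (P. umbellatus) in A549, a human lung carcinoma cell line with wild-type p53. The comparison used 6 of the 24 libraries of the series, 3 per herb, and left the untreated cells out of the fit. It covered the 13700 genes, of 14585 in the deposited table, whose mean estimated count over these 6 libraries was above 5. Both groups are labelled WT, and they differ only in the herb named as treatment. The other libraries were 3 of A549 control cells, 3 of A549 cells with Bupleurum chinense (B. chinense), and the same 4 groups in Huh7, a human hepatocellular carcinoma cell line with mutant p53. A549 control values are given beside the results as a background level. The extracts were made with ethanol and dissolved in DMSO, so each treatment is a mixture of compounds. The sources used here give neither the concentration nor the duration of exposure for the cells that were sequenced, nor say whether control cells received DMSO. The labels do not say whether the 3 replicates of a group were separate cultures, so p-values measure the spread between these libraries, which may be technical.

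P. chinensis is a buttercup relative whose root is rich in triterpenoid saponins, and P. umbellatus is a fungus whose sclerotium is rich in polysaccharides and ergosterol-type steroids. In cells with wild-type p53, this transcription factor is held at a low level by the ubiquitin ligase MDM2, whose gene is itself a p53 target. Stabilized p53 raises CDKN1A, whose protein p21 inhibits cyclin-dependent kinases. The retinoblastoma-related proteins then hold E2F and DREAM target genes down, which include the genes of DNA replication and mitosis. Immediate early genes such as EGR1 and FOSB answer to growth factor and stress kinases, and their transcripts are short-lived.

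The 6 libraries summed to between 8056191 and 17175624 counts, and the median chi-square over genes between replicates of a herb was 2.74 to 4.30 times that of sampling alone. The first principal component of the 6 libraries carried 28.8% of the variance and placed P. chinensis between 14.2 and 25.5 and P. umbellatus between -33.5 and -9.16. Libraries of different herbs thus did not overlap on it, but the second component carried nearly as much, 20.9%. Correlations of log2 levels were 0.982 to 0.984 within P. chinensis, 0.983 to 0.986 within P. umbellatus and 0.978 to 0.985 between the herbs. By correlation the herbs were thus not set apart. Each A549 marker listed was tested, 12 in all, with a summed level of 19191 to 22186 CPM (counts scaled to the TMM-normalized library size) with P. chinensis and 22469 to 24089 with P. umbellatus. Among them AKR1B10 and NQO1 were lower with P. chinensis (16.7%, against 1.2% of all genes) and none was higher. The hepatocyte markers ALB and AFP, the endothelial marker VWF and the leukocyte markers CD3E and CD79A did not pass the count filter, and the tested hepatocyte markers summed to at most 14.6 CPM in any of the 6 libraries. The surfactant genes SFTPA1 and SFTPC and the lung factor NKX2-1 did not pass it either, although A549 is often used as a model of alveolar epithelium. No listed marker of alveolar type 2 cells (4 of 10 tested), hepatocytes (7 of 14), fibroblasts (4 of 9), endothelium (1 of 7) or leukocytes (3 of 9) passed the test between the herbs.

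Of the 13700 genes tested, 229 (1.67%) differed between the herbs with an adjusted p below 0.05 (edgeR, quasi-likelihood, two-sided, Benjamini-Hochberg). Levels were higher with P. chinensis for 65 genes (0.474%) and lower for 164 (1.2%). The median log2 fold change, P. chinensis minus P. umbellatus, was 0.48 over the higher genes and -0.41 over the lower genes, and 14 of the higher and 4 of the lower genes differed by at least 1 on the log2 scale. Over all genes the median was 0.01. In each of the 229 genes the 3 libraries of one herb did not overlap the 3 of the other, which held for 10.7% of all genes in the higher direction and for 11.4% in the lower. Where it is stated below for a gene that passed, it is thus no further evidence. The unadjusted p was below 0.05 for 960 higher and 1240 lower genes.

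How many genes passed depended on every library. The counts fell to between 2 and 21 higher and between 2 and 75 lower genes when 1 of the 6 libraries was left out, and were lowest without replicate 3 of P. umbellatus. Among the 78 named genes that passed, MDM2, MUC5AC and MUC5B passed in each of the 6 fits on 5 libraries. The sign of the fold change stayed as it was for all 229 genes in each of those fits. Since the herbs did not overlap in these genes, the sign had little room to turn, so this is no further support. With DESeq2 the counts were 127 higher and 361 lower genes. With upper quartile in place of TMM normalization they were 76 and 99, so that 43.4% of the genes that passed were higher instead of 28.4%.

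**Figure D1:**
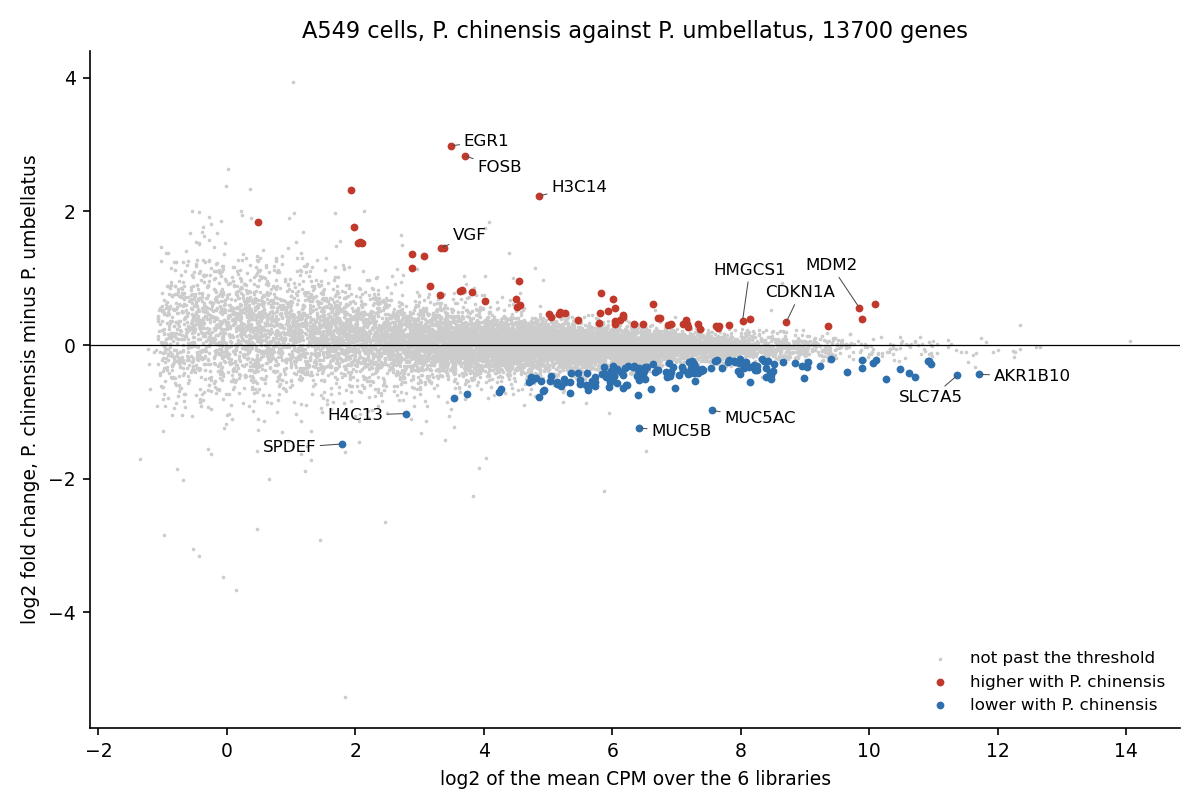
Log2 fold change, P. chinensis minus P. umbellatus, against the log2 mean CPM over the 6 libraries for the genes tested in A549 cells, with the 65 higher genes in red, the 164 lower genes in blue and the others in grey. KBTBD11, which was at 0 in all P. chinensis libraries, is not drawn. The highest positive fold changes that passed belong to EGR1 and FOSB, while abundant genes such as MDM2 and AKR1B10 passed with differences of 0.56 and -0.44.

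The p53 target genes that passed were all higher with P. chinensis. Of 51 tested p53 targets outside cell death, 12 were higher (23.5%, against 0.474% of all genes) and none was lower. The median over the list was 0.26, and 46 of the members had a positive fold change. MDM2 (chromosome 12, 68808177 to 68845544, plus strand), which encodes the ligase that degrades p53, had 1094, 1044 and 1144 CPM with P. chinensis, 716, 762 and 748 CPM with P. umbellatus and 278, 283 and 276 CPM in control cells. All 3 P. chinensis libraries lay above all 3 of P. umbellatus, and both herbs lay above control. The difference between the herbs was 1.47-fold (log2 fold change 0.56 ± 0.05 (SE), adjusted p = 0.00331).

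CDKN1A (chromosome 6, 36676460 to 36687337, plus strand), the gene of p21, had 475, 447 and 475 CPM with P. chinensis against 363, 369 and 374 CPM with P. umbellatus and 69.3, 76.3 and 93.998 CPM in control cells (log2 fold change 0.34 ± 0.04 (SE), adjusted p = 0.0163). The step between the herbs was thus small beside the step of either herb from control, which was 2.53 for P. chinensis and 2.22 for P. umbellatus on the log2 scale, in comparisons that share the control libraries. BTG2, an antiproliferative gene, had 80.1, 72.2 and 82.7 CPM against 52.8, 52.7 and 55.3 (log2 fold change 0.55 ± 0.07 (SE), adjusted p = 0.0163). TP53INP1, which encodes a p53-inducible nuclear protein, had 67.7, 78.1 and 70.3 CPM against 47.6, 52.6 and 51.9 (log2 fold change 0.51 ± 0.08 (SE), adjusted p = 0.0215). TP53I3, a quinone oxidoreductase gene, had 167, 157 and 156 CPM against 133, 107 and 129 (log2 fold change 0.38 ± 0.08 (SE), adjusted p = 0.048). In each of these the herbs did not overlap.

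Of 11 tested p53 targets that act in cell death, none passed, with a median of 0.14. BBC3, which encodes the BH3-only protein PUMA, had 16.6, 16.02 and 15.1 CPM against 12.4, 11.6 and 12.1 CPM, libraries that did not overlap, with an adjusted p of 0.166. PIDD1, a death domain gene, had 16.4, 12.8 and 9.80 CPM against 8.66, 6.13 and 8.004 CPM (log2 fold change 0.75 ± 0.22, adjusted p = 0.134). Among 41 tested genes of the BCL2 family, caspases and death receptors, BIRC3 was higher (2.44%, against 0.474% of all genes). None was lower, and the median was 0.04. CASP8, FADD and PARP1 had log2 fold changes of 0.15, -0.06 and -0.06, with adjusted p of 0.537, 0.751 and 0.657. When a library was left out, between 1 and 4 of the targets outside cell death passed, and their median ran from 0.25 to 0.30.

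The S phase and G2/M genes that passed were all lower with P. chinensis. Of 42 tested S phase genes, 10 were lower (23.8%, against 1.2% of all genes), with a median log2 fold change of -0.39, and of 54 tested G2/M genes 9 were lower (16.7%), with a median of -0.29. No member of either list was higher. Against control, the S phase median was -1.22 with P. chinensis and -0.82 with P. umbellatus, and the G2/M median -1.27 and -0.93, in comparisons that share the control libraries. In bulk RNA, fewer cells in these phases and less RNA per cell cannot be told apart.

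Among the S phase genes, MCM5 (chromosome 22, 35400134 to 35425431, plus strand), a subunit of the replicative helicase, had 56.7, 55.8 and 52.3 CPM with P. chinensis, 77.5, 71.9 and 78.04 CPM with P. umbellatus and 172, 166 and 172 CPM in control cells (log2 fold change -0.46 ± 0.07 (SE), adjusted p = 0.0187). CDT1, which is not in the list and loads that helicase onto origins, had 21.5, 28.9 and 20.4 CPM against 38.1, 34.4 and 41.1 CPM (log2 fold change -0.67 ± 0.14 (SE), adjusted p = 0.0458). The lowest P. umbellatus library of CDT1 was thus above the highest of P. chinensis. DTL, an adaptor of the ligase that degrades CDT1, had 44.2, 39.3 and 32.3 CPM against 57.1, 61.1 and 56.3 CPM (log2 fold change -0.59 ± 0.11 (SE), adjusted p = 0.0357). NASP, a histone chaperone, had 13.5, 12.6 and 16.7 CPM against 25.1, 21.8 and 23.1 CPM (log2 fold change -0.70 ± 0.14 (SE), adjusted p = 0.0414). MCM4, another helicase subunit, was lower by 0.38 ± 0.06 (SE) on the log2 scale.

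Of 37 enzymes of nucleotide and folate metabolism tested, 3 were lower (8.11%, against 1.2% of all genes) and none was higher, with a median of -0.08. Among the 3 are thymidine kinase TK1 and the ribonucleotide reductase subunit RRM1, enzymes that supply DNA precursors. TK1 had 60.1, 59.3 and 58.6 CPM with P. chinensis, 83.8, 89.7 and 97.5 CPM with P. umbellatus and 157, 163 and 171 CPM in control cells (log2 fold change -0.60 ± 0.07 (SE), adjusted p = 0.0113). The P. chinensis libraries of TK1 lay within 2 CPM of each other. RRM1 had a log2 fold change of -0.40 ± 0.08 (SE).

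Among the G2/M genes, TOP2A (chromosome 17, 40388525 to 40417896, minus strand), the topoisomerase that untangles sister chromatids, had 440.0, 454 and 358 CPM with P. chinensis, 569, 605 and 593 CPM with P. umbellatus and 1260.0, 1249.9 and 1230.0 CPM in control cells (log2 fold change -0.50 ± 0.08 (SE), adjusted p = 0.0248). MKI67, the proliferation marker, had 304, 289 and 250.2 CPM against 426, 364 and 383 CPM (log2 fold change -0.48 ± 0.08 (SE), adjusted p = 0.0307). In both genes replicate 3 was the lowest of the P. chinensis libraries. UBE2C, a ubiquitin-conjugating enzyme of mitotic exit, and ANLN, the actin-binding protein anillin of cytokinesis, had log2 fold changes of -0.53 ± 0.09 and -0.38 ± 0.07 (SE). Tubulins and kinesins held 4 lower genes among 32 tested (12.5%, against 1.2% of all genes) and no higher one, with a median of -0.24. The 4 were TUBA1B (-0.42), TUBB (-0.35), TUBB4B (-0.31) and the cytokinesis kinesin KIF14 (-0.40).

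Of 36 E2F, DREAM and cell cycle regulators tested, E2F1, MYBL2 and CCNA2 were lower (8.33%, against 1.2% of all genes). CDKN1A was higher (2.78%, against 0.474%), and the median was -0.16. E2F1 (chromosome 20, 33675477 to 33686385, minus strand), an activator of S phase genes, had 31.8, 28.5 and 25.2 CPM with P. chinensis, 42.9, 41.6 and 41.3 CPM with P. umbellatus and 68.8, 73.6 and 78.02 CPM in control cells (log2 fold change -0.56 ± 0.10 (SE), adjusted p = 0.0326). MYBL2, which joins the MuvB complex to activate mitotic genes, had 62.9, 52.998 and 47.6 CPM against 77.7, 80.1 and 83.4 CPM (log2 fold change -0.56 ± 0.10 (SE), adjusted p = 0.0326). The herbs did not overlap in either gene. The E2F partner TFDP1 had 66.2, 72.3 and 65.3 CPM against 77.7, 71.4 and 67.2 CPM, groups that overlapped (log2 fold change -0.09 ± 0.08 (SE), adjusted p = 0.632). FOXM1, a driver of mitotic genes, had 102, 97.8 and 94.2 CPM against 114, 111 and 114 CPM, which did not overlap (log2 fold change -0.20 ± 0.05 (SE), adjusted p = 0.0972). CENPA, the centromeric histone H3, had a log2 fold change of -0.72 ± 0.21 (SE) with an adjusted p of 0.127, ZNF367 -0.53 ± 0.15 with 0.132, PA2G4 -0.16 ± 0.05 with 0.153, and E2F7 -0.06 ± 0.10 with 0.813. Without 1 library, between 0 and 3 S phase genes and between 0 and 2 G2/M genes passed as lower, and the medians ran from -0.40 to -0.32 and from -0.32 to -0.25.

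The promoters of E2F1 and TOP2A are shown as examples of the 2 kinds of cell cycle promoter, with letters that match the motifs searched in capitals. The windows run from 250 bases before the start site to 50 after it, come from RefSeq (GRCh38.p14) and were searched on both strands. In E2F1 (chr20:33686336-33686635, minus strand) the capitals mark 1 E2F site (TTTGGCGC or TTTCCCGC), whose first base lies at -20 from the start site, and 3 CCAAT boxes (CCAAT). In TOP2A (chr17:40417847-40418146, minus strand) they mark 4 CCAAT boxes and 2 copies of the cell cycle genes homology region, CHR (TTTGAA or TTCGAA), the element that the DREAM complex binds.
E2F1: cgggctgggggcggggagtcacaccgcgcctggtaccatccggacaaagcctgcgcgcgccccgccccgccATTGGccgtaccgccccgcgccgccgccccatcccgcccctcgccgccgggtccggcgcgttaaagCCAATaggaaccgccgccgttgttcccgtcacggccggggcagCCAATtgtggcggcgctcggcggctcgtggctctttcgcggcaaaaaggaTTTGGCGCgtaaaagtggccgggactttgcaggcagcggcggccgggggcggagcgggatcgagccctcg
TOP2A: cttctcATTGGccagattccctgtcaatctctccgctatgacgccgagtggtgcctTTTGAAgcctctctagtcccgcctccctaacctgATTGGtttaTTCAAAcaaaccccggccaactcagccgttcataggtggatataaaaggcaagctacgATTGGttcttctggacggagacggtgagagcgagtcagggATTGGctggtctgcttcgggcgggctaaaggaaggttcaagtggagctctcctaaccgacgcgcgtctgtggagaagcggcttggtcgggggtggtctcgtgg
A promoter window was found for 122 of the 164 lower and 51 of the 65 higher genes. It held a CHR in 19.7% of the lower and 17.6% of the higher genes, against 16.6% of all 27305 windows and 11.5% of those of tested genes. A CCAAT box was found in 45.1% of the lower and 37.3% of the higher genes, against 35.7% of all windows and 36.6% of tested genes. An E2F site was found in 9.02% and 3.92%, against 2.31% of all windows and 3.54% of tested genes. In the list of S phase genes an E2F site was found in 40.6% of 32 windows, and in the list of G2/M genes a CHR in 73.3% of 45 windows. These shares describe letters in a window and were not tested.

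Replication-dependent histone genes made up the largest block of lower genes of any list. They encode the core and linker histones of S phase, end in a stem-loop instead of a poly(A) tail, and are kept in libraries made, as here, by depletion of ribosomal RNA instead of poly(A) selection. Of 49 listed genes tested, 21 were lower (42.9%, against 1.2% of all genes) and none was higher. The median was -0.51, with 47 of the members below 0. H3C14, a histone H3 gene that the list leaves out, passed as higher (log2 fold change 2.23) and is described below. The summed level of the listed genes was 2058 to 2215 CPM with P. chinensis, 2626 to 3084 CPM with P. umbellatus and 7111 to 7626 CPM in control cells. The sums of the 3 groups did not overlap.

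The linker histone H1-3 (chromosome 6, 26234212 to 26234987, minus strand) had 54.2, 58.8 and 55.1 CPM with P. chinensis, 91.7, 81.4 and 88.9 CPM with P. umbellatus and 292, 279.7 and 269.6 CPM in control cells (log2 fold change -0.64 ± 0.07 (SE), adjusted p = 0.00893). H2BC18, H2BC17 and H2BC4, which encode histone H2B, had log2 fold changes of -0.64 ± 0.08, -0.63 ± 0.08 and -0.46 ± 0.06 (SE). H2AC4 and H2AC17 (histone H2A) had -0.68 and -0.68, H3C2, H3C11 and H3C12 (histone H3) -0.66, -0.65 and -0.71, and H2BC10 and H4C9 -0.73 and -0.80. The largest of these differences was that of H4C13 (histone H4), with 4.37, 4.23 and 4.85 CPM against 9.61, 7.71 and 10.8 CPM (log2 fold change -1.03 ± 0.20 (SE), adjusted p = 0.0414). Reads of near-identical histone copies could be split between genes by the authors' counting, so the level of a single copy is uncertain. Without 1 library, between 0 and 11 histone genes passed as lower, with none without replicate 3 of P. umbellatus, and the median ran from -0.57 to -0.46.

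Of all histone genes H3C14 was the one that passed as higher, while 2 of the 49 listed members had a positive fold change without passing. H3C14 (chromosome 1, 149840687 to 149841208, minus strand), which is not in the list, had 21.96, 35.8 and 85.6 CPM with P. chinensis, 10.6, 8.73 and 10.9 CPM with P. umbellatus and 60.3, 71.3 and 114 CPM in control cells (log2 fold change 2.23 ± 0.42 (SE), adjusted p = 0.0396). The P. chinensis libraries spread over a wide range, with replicate 3 the highest, and lay around or below the control level. Near-identical copies of this gene exist, so its value is uncertain too.

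The immediate early genes EGR1 and FOSB had the largest positive fold changes among the genes that passed. Of 30 tested, 5 were higher (16.7%, against 0.474% of all genes) and none was lower, with a median of 0.18. EGR1 (chromosome 5, 138465479 to 138469303, plus strand), a zinc finger factor, had 14.99, 15.1 and 30.1 CPM with P. chinensis, 2.51, 1.39 and 3.38 CPM with P. umbellatus and 1.41, 1.29 and 1.75 CPM in control cells (log2 fold change 2.98 ± 0.35 (SE), adjusted p = 0.0113). The P. umbellatus and control libraries of EGR1 overlapped, and replicate 3 was the highest of P. chinensis. FOSB (chromosome 19, 45467995 to 45475179, plus strand), a FOS family member of the AP-1 factor, had 17.4, 15.4 and 36.1 CPM against 2.81, 3.34 and 3.13 CPM (log2 fold change 2.84 ± 0.33 (SE), adjusted p = 0.0113), with control cells at 0.128, 0.795 and 0.779 CPM. The 3 groups of FOSB did not overlap, in the order control, P. umbellatus, P. chinensis.

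ATF3, a stress-induced bZIP factor, had 12.04, 7.86 and 16.3 CPM against 4.84, 3.995 and 5.25 CPM (log2 fold change 1.34 ± 0.27 (SE), adjusted p = 0.0443). NR4A2, an orphan nuclear receptor, had 10.2, 8.06 and 12.2 CPM against 3.88, 4.09 and 5.63 CPM (log2 fold change 1.15 ± 0.23 (SE), adjusted p = 0.0443), and control cells had 9.46, 8.74 and 7.31 CPM. Here P. umbellatus lay below control and P. chinensis overlapped it. The fifth gene was NR4A3, which was named after its values were seen and had 7.44, 3.83 and 7.37 CPM against 1.73, 1.95 and 2.501 CPM. VGF (chromosome 7, 101162509 to 101165569, minus strand), a secreted neuropeptide precursor induced by growth factors, had 12.3, 12.9 and 19.1 CPM with P. chinensis, 5.55, 4.83 and 5.50 CPM with P. umbellatus and 3.32, 2.68 and 2.05 CPM in control cells (log2 fold change 1.45 ± 0.21 (SE), adjusted p = 0.0167). Without 1 library, up to 4 of the immediate early genes passed, and none did without replicate 3 of P. umbellatus.

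The promoters of EGR1 (chr5:138465229-138465528, plus strand) and VGF (chr7:101165520-101165819, minus strand) are shown since both genes are textbook targets of signal-driven factors. In EGR1 the capitals mark 2 CArG boxes, the element bound by serum response factor, which begin at -105 and -83 and which were searched for after the values of EGR1 were seen. In VGF they mark 1 cyclic AMP response element, CRE (TGACGTCA), at -79.
EGR1: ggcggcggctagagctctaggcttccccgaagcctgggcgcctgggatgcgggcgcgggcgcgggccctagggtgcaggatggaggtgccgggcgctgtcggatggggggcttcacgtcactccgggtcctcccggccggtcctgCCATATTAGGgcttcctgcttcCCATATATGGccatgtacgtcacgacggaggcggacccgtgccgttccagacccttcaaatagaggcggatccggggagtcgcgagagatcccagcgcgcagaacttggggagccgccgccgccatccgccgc
VGF: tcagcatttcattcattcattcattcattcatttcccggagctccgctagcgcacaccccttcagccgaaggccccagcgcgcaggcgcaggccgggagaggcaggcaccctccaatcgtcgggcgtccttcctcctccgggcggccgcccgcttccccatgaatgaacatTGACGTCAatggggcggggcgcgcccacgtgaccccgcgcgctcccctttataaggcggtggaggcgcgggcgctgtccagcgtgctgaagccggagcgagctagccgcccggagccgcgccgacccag
A CArG box was found in 1.96% of the 51 windows of higher genes and 2.46% of the 122 windows of lower genes, against 1.29% of all 27305 windows and 1.07% of those of tested genes. A CRE was found in 5.88% and 8.2%, against 1.98% and 3.14%. An AP-1 site (TGACTCA) was found in 9.8% (5 windows) of the higher genes and in 0 windows of the lower genes, against 4.92% and 3.16%.

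**Figure D2:**
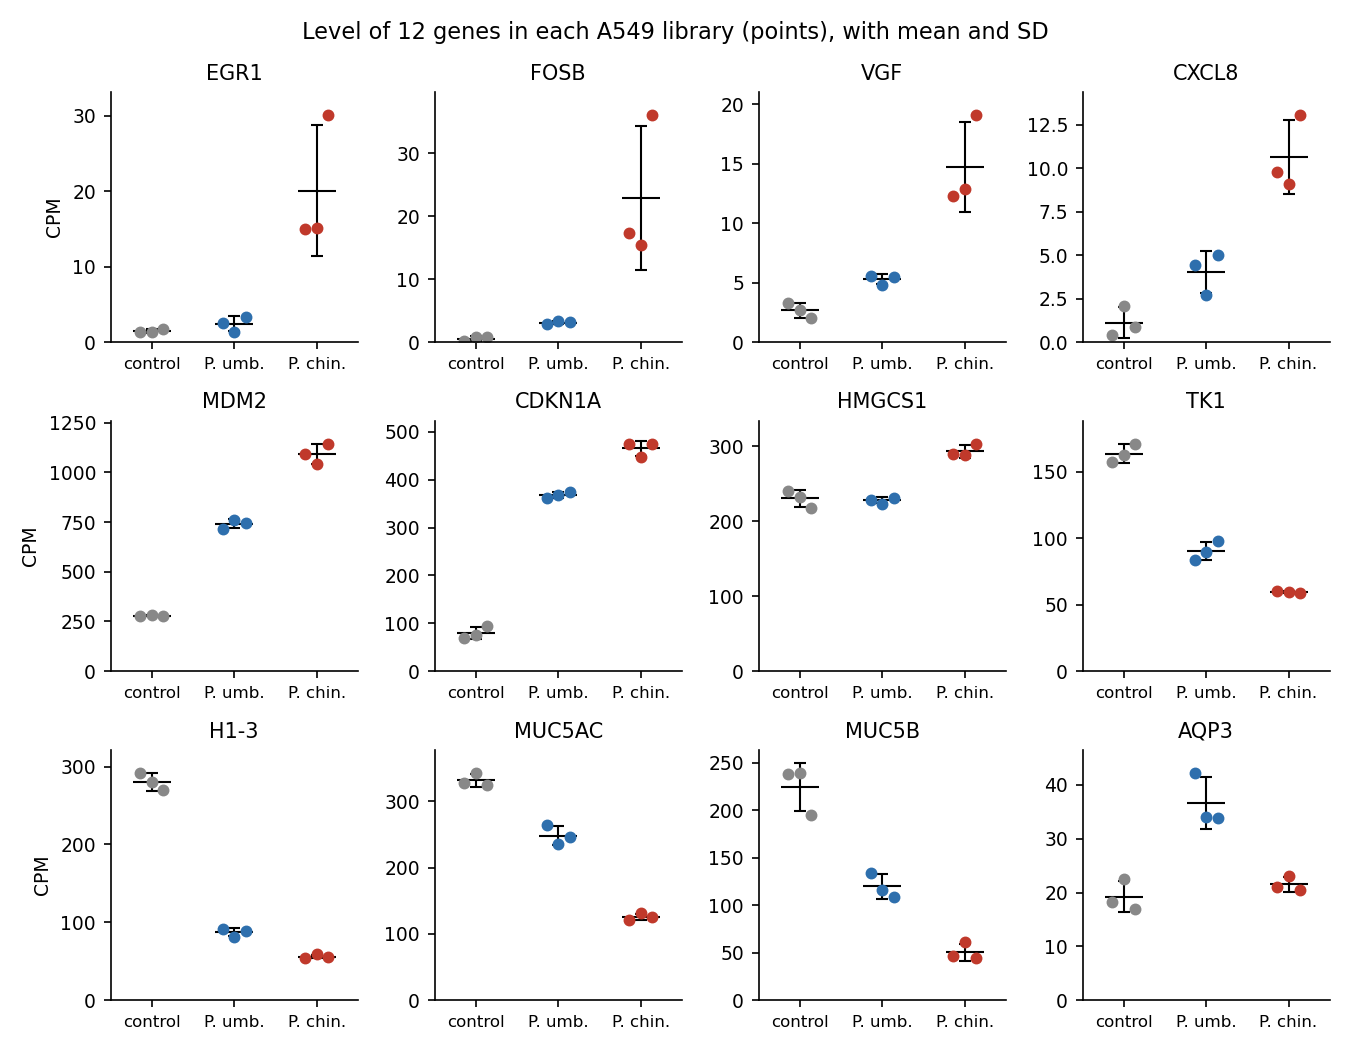
CPM of 12 genes in each library of A549 control cells (grey), P. umbellatus (blue) and P. chinensis (red), with the mean and the SD of 3 libraries. In each gene the red and blue points do not overlap, as in every gene that passed. MDM2, CDKN1A, TK1, H1-3, MUC5AC and MUC5B step from control through P. umbellatus to P. chinensis, while HMGCS1 with P. umbellatus and AQP3 with P. chinensis overlap control.

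A few inflammatory and stress genes were higher with P. chinensis. Of 30 NF-kB targets and cytokines tested, CXCL8, CXCL2 and BIRC3 were higher (10% of the list, against 0.474% of all genes) and none was lower, with a median of 0.28. CXCL8, the neutrophil chemokine interleukin 8, had 9.80, 9.07 and 13.1 CPM with P. chinensis, 4.42, 2.69 and 5.002 CPM with P. umbellatus and 0.383, 2.09 and 0.877 CPM in control cells (log2 fold change 1.37 ± 0.25 (SE), adjusted p = 0.0379). BIRC3, an inhibitor of apoptosis induced by NF-kB, had 309, 288 and 369 CPM against 240.4, 252 and 242 CPM (log2 fold change 0.40 ± 0.08 (SE), adjusted p = 0.0462). CXCL2, a related chemokine, had a log2 fold change of 0.80 ± 0.16 (SE). The NF-kB subunits RELA and NFKB1 had 0.03 ± 0.06 (adjusted p = 0.836) and 0.31 ± 0.10 (adjusted p = 0.171).

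Of 38 genes of the ATF4 integrated stress response tested, DDIT3 and PPP1R15A were higher (5.26%, against 0.474% of all genes). SLC7A5 was lower (2.63%, against 1.2%), and the median was -0.05. DDIT3, which encodes the factor CHOP, had 14.3, 10.3 and 21.4 CPM against 5.97, 6.60 and 3.63 CPM (log2 fold change 1.45 ± 0.29 (SE), adjusted p = 0.0443). PPP1R15A, which encodes the phosphatase subunit GADD34, had 65.6, 61.2 and 89.004 CPM against 49.7, 35.6 and 39.8 CPM (log2 fold change 0.78 ± 0.16 (SE), adjusted p = 0.0456). SLC7A5, the large neutral amino acid transporter, had 2351, 2248 and 2116 CPM with P. chinensis, 3038, 2976 and 3170.0 CPM with P. umbellatus and 3378, 3551 and 3802 CPM in control cells (log2 fold change -0.45 ± 0.05 (SE), adjusted p = 0.00893). The members that passed thus lay on both sides of 0.

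The gel-forming mucins MUC5AC and MUC5B were lower with P. chinensis. MUC5AC (chromosome 11, 1157953 to 1201138, plus strand), a secreted mucin of airway goblet cells, had 122, 131 and 125 CPM with P. chinensis, 264, 235 and 246 CPM with P. umbellatus and 328, 343 and 325 CPM in control cells (log2 fold change -0.98 ± 0.06 (SE), adjusted p = 0.000214, the lowest p of all genes). Its neighbour MUC5B (chromosome 11, 1223066 to 1262172, plus strand), the main mucin of airway glands, had 46.2, 60.8 and 44.8 CPM, 134, 116 and 109 CPM and 238, 239 and 195 CPM in the same order (log2 fold change -1.24 ± 0.12 (SE), adjusted p = 0.00691). SPDEF, a factor of goblet cell differentiation, had 1.89, 1.71 and 1.59 CPM against 5.07, 4.55 and 5.88 CPM (log2 fold change -1.48 ± 0.25 (SE), adjusted p = 0.031), at a mean of 38.5 counts a library. In these 3 genes the groups did not overlap and control cells had the highest levels. They were the genes that passed among 22 keratins, mucins and junction genes tested (13.6%, against 1.2% of all genes), whose median was 0.05.

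Among other genes with large differences, AQP3, ZNF469 and TSC22D3 had their highest or lowest level with P. umbellatus and not in control cells. AQP3, a channel for water and glycerol, had 21.02, 23.1 and 20.5 CPM with P. chinensis and 18.3, 22.6 and 16.9 CPM in control cells, which overlapped, and 42.3, 34.1 and 33.8 CPM with P. umbellatus (log2 fold change -0.77 ± 0.11 (SE), adjusted p = 0.0196 between the herbs). ZNF469, a zinc finger gene linked to corneal collagen, had 68.6, 65.1 and 54.95 CPM, 61.7, 72.2 and 70.5 CPM and 107, 105 and 104 CPM in the same order (log2 fold change -0.75 ± 0.08 (SE), adjusted p = 0.00893). TSC22D3, the glucocorticoid-induced leucine zipper gene, had 13.2, 11.9 and 12.6 CPM with P. chinensis, 9.46, 9.14 and 9.06 CPM in control cells and 7.76, 7.25 and 7.13 CPM with P. umbellatus (log2 fold change 0.75 ± 0.15 (SE), adjusted p = 0.0456). NEK10, a kinase gene of ciliated cells (0.82 ± 0.16 SE), and WDR19, an intraflagellar transport gene (0.80 ± 0.15), were also higher. Their P. umbellatus libraries overlapped those of control cells, with means of 9.02 against 9.16 CPM for NEK10 and 8.95 against 6.96 CPM for WDR19.

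The cholesterol synthesis genes that passed were all higher with P. chinensis. Of 25 SREBP2 targets tested, 3 were higher (12%, against 0.474% of all genes), among them HMGCS1 and LSS. None was lower, and the median was 0.24, with 23 members above 0. HMGCS1 (chromosome 5, 43287470 to 43313512, minus strand), the synthase that makes HMG-CoA, had 289, 288 and 303 CPM with P. chinensis, 229, 224 and 231 CPM with P. umbellatus and 241, 233 and 218 CPM in control cells (log2 fold change 0.37 ± 0.04 (SE), adjusted p = 0.0123). LSS, lanosterol synthase, had a log2 fold change of 0.33 ± 0.07 (SE). Against control the list's median was 0.04 with P. chinensis and -0.15 with P. umbellatus, so the medians lay on either side of 0. Without 1 library, up to 1 member passed, and the median between the herbs ran from 0.20 to 0.27. Of 20 genes of fatty acid synthesis and desaturation tested, SREBF1, the factor that drives them, was lower (-0.45, adjusted p = 0.0398). It was 5% of the list, against 1.2% of all genes, and the median was -0.03.

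Of 29 NRF2 targets tested, 5 were lower with P. chinensis (17.2%, against 1.2%) and none was higher, with a median of -0.15. A549 cells carry a KEAP1 mutation that keeps this antioxidant factor active. AKR1B10, an aldo-keto reductase, had 2864, 3128 and 2522 CPM with P. chinensis, 4126, 3791 and 3628 CPM with P. umbellatus and 3795, 3739 and 3449 CPM in control cells (log2 fold change -0.44 ± 0.08 (SE), adjusted p = 0.0326). NQO1, a quinone reductase, had 1757, 1839 and 1755 CPM against 2179.9, 2076 and 2050.1 CPM (log2 fold change -0.24 ± 0.04 (SE), adjusted p = 0.0328). GCLM, the modifier subunit of glutathione synthesis, had -0.31 ± 0.04 (SE). PGD (-0.22 ± 0.04 SE), an enzyme of the pentose phosphate pathway, was lower too and was named after its values were seen. Without 1 library, up to 2 of these genes passed.

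Of 11 targets of the aryl hydrocarbon receptor tested, CYP1B1 and NQO1 were lower (18.2%, against 1.2% of all genes), with a median of -0.11. NQO1 is also counted among the NRF2 targets, and without 1 library up to 1 member of this list passed. CYP1B1, a cytochrome P450, had 234, 215 and 239 CPM with P. chinensis, 393, 303 and 316 CPM with P. umbellatus and 107.6, 95.9 and 98.8 CPM in control cells (log2 fold change -0.56 ± 0.09 (SE), adjusted p = 0.0288). Both herbs lay above control in this gene, and P. umbellatus lay highest. The same order of levels was found for TGFA (-0.32, adjusted p = 0.0458) and for the YAP target CCN1 (-0.44, adjusted p = 0.0326). TGFA was the member that passed among 11 genes of the EGF receptor family and its ligands (9.09%, against 1.2% of all genes). TGFB1, a growth factor gene, had a log2 fold change of -0.34, adjusted p = 0.0329. TAGLN, which encodes an actin-binding protein, is in the same list of 24 YAP and TGF-beta responsive genes tested as CCN1 and TGFB1 (median 0.01), and was higher, with 4.96, 6.75 and 7.65 CPM against 2.69, 1.49 and 2.13 CPM (log2 fold change 1.52 ± 0.28 (SE), adjusted p = 0.0379). In the YAP and TGF-beta list, 4.17% passed as higher and 8.33% as lower, against 0.474% and 1.2% of all genes. The laminin chain gene LAMB3 was higher by 0.45 ± 0.06 (SE) on the log2 scale. It was the member that passed among 21 mesenchymal and invasion genes tested (4.76%, against 0.474%, median 0.19). LDHA (-0.22, adjusted p = 0.0409) was the member that passed among 33 hypoxia and glycolysis genes (3.03%) and CTSD (-0.25, adjusted p = 0.0396) among 38 autophagy and lysosome genes (2.63%). These shares were not far above the 1.2% of all genes.

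In the lists that follow no gene passed. They were 74 cytosolic ribosomal protein genes (median 0.07), 70 nuclear subunits of the respiratory chain (0.03), 79 KRAB zinc finger genes (0.11), 32 interferon response genes (0.12), 31 proteasome subunits (-0.01) and 31 genes of MYC and ribosome biogenesis (0.00). They also included 23 genes of ER folding (-0.06), 17 cytosolic heat shock genes (0.07), 11 LXR targets (-0.03), 10 ABC drug transporters (-0.18), 9 kynurenine pathway genes (0.09) and 5 metallothioneins and zinc genes (0.04). The members of lowest p were RPS3 (0.19 ± 0.04 SE, adjusted p = 0.0543) for ribosomal proteins and CALR (-0.19 ± 0.05, 0.0797) for ER folding. MYC had 174, 174 and 213 CPM against 191, 188 and 191 CPM (log2 fold change -0.02 ± 0.08 (SE), adjusted p = 0.922). The 13 genes of the mitochondrial genome had a median of -0.13, and replicate 1 of P. umbellatus had the highest mitochondrial share of counts, 4.37% against 3.14% to 3.90% in the other 5 libraries. Without that library the median was 0.12. A gene that missed the threshold is not shown to be equal between the herbs.

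**Figure D3:**
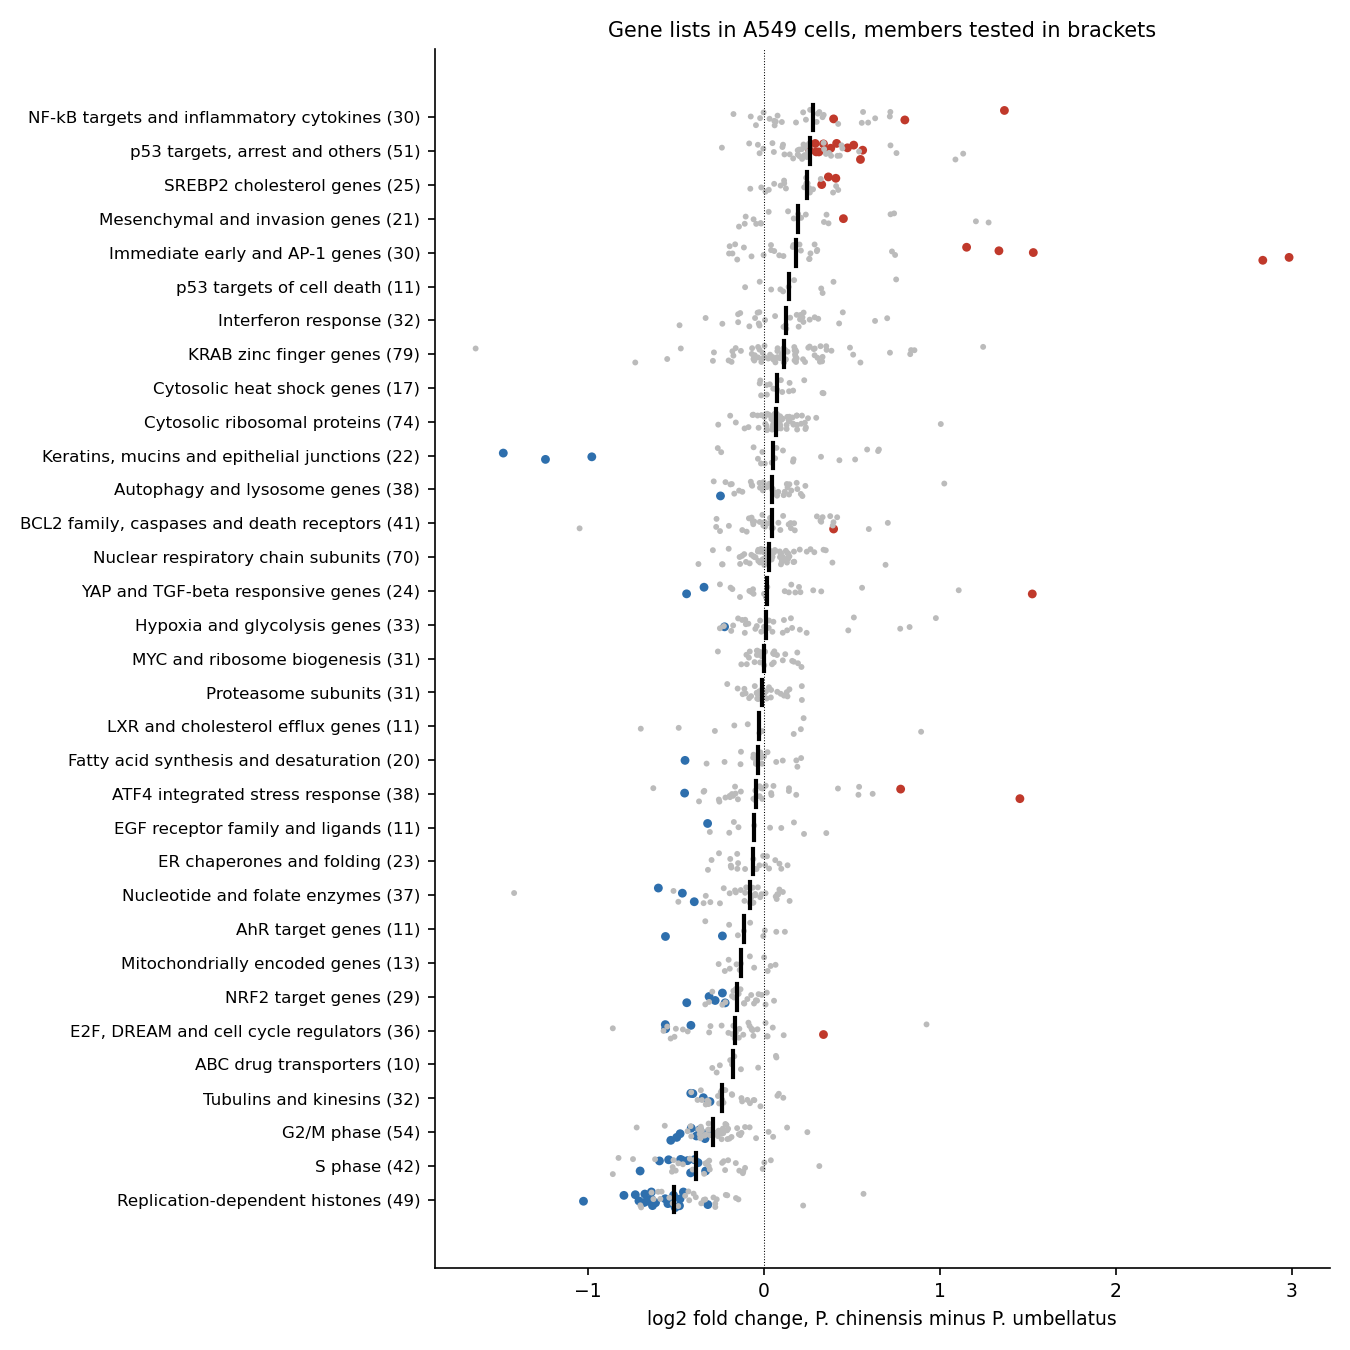
Log2 fold change, P. chinensis minus P. umbellatus, of the members of 33 gene lists with at least 10 members tested, each point a gene, red where higher, blue where lower and grey where the threshold was missed, with black bars at the medians. Replication-dependent histones, S phase and G2/M genes lie to the left of 0, and p53 targets, NF-kB targets and cholesterol genes to the right.

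Comparisons of each herb with control share the libraries of the contrast and the control libraries, so they place the levels and are no further test. Of the 65 higher genes, 30 passed as above control with both herbs and 19 with P. chinensis while P. umbellatus missed the threshold, against 13.8% and 13% of all genes above control with P. chinensis and P. umbellatus. Of the 164 lower genes, 90 passed as below control with both herbs and 30 with P. chinensis while P. umbellatus missed the threshold, against 16.9% and 12.9% of all genes below control. A further 21 of the lower genes were above control with P. umbellatus while P. chinensis missed the threshold, as for AQP3 and ZNF469, and 17 were above control with both, as for CYP1B1 and TGFA. The mean level of P. umbellatus stood between those of control and P. chinensis in 43 of the 65 and in 106 of the 164. The shares of all genes given here are for each herb alone, and none was counted for both herbs jointly or for this order. Choosing genes by a difference between the herbs favours such orders by itself. Set against B. chinense, P. chinensis differed in 13 higher (0.0949%) and 20 lower (0.146%) genes, in a comparison that shares the P. chinensis libraries.

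The same contrast was made in Huh7 cells on separate libraries. Replicate 2 of P. umbellatus stood apart there, with a median chi-square against the other 2 replicates of 13.3 and 17.6 times the sampling value, while the other replicate pairs of both herbs were at 3.03 to 5.35 times. In Huh7 cells 846 genes were higher (6.09%) and 1216 lower (8.76%) with P. chinensis among 13884 tested, and 1580 and 1878 without that library. Leaving out any one replicate of P. chinensis, or replicate 1 of P. umbellatus, left at most 9 higher and 2 lower genes, and leaving out replicate 3 of P. umbellatus gave 1890 and 2004. Of the 229 genes of A549 cells, 58 passed in Huh7 cells in the same direction and 13 in the opposite direction, and 77 and 26 without replicate 2 of P. umbellatus. The difference between the lines, tested as an interaction over 12 libraries, passed for 1083 of 14523 genes (7.46%), 3.42% as higher and 4.03% as lower in A549, and for 54 of the 229, and for 71 of the 229 without that library.

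FOSB was higher in both lines, by 2.84 ± 0.33 in A549 and 2.20 ± 0.16 in Huh7 (log2 fold change and SE), and the difference between the lines missed the threshold (adjusted p = 0.308). VGF (2.10 ± 0.29 in Huh7, adjusted p of the line difference 0.253) and ATF3 (1.19 ± 0.14, 0.803) were also higher in both. For EGR1 the fold change in Huh7 was 0.81 ± 0.20, and that in A549 was larger by 2.17 on the log2 scale (adjusted p = 0.0169). MDM2 went in opposite directions, with 0.56 ± 0.05 in A549 and -0.58 ± 0.11 in Huh7, a difference of 1.11 (adjusted p = 0.000936). CDKN1A had 0.55 ± 0.20 in Huh7, and its difference between the lines missed the threshold (adjusted p = 0.438). These line differences kept their side of the threshold without replicate 2 of P. umbellatus in Huh7, a fit in which more genes passed. For these genes, fits without a P. chinensis replicate in Huh7, in which fewer genes passed, are not given here.

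Over all genes, 6.09% passed as higher and 8.76% as lower in Huh7. The line difference passed for 3.42% of all genes as higher and 4.03% as lower in A549. List counts near these shares are no result about the list. Without any 1 replicate of P. chinensis in Huh7, no member of the lists below passed there. For S phase genes the median was -0.39 in A549 and -0.45 in Huh7, where 19 of 42 passed as lower. The line difference passed for 2 of 42 as higher in A549 (0 to 3 without 1 Huh7 library). For G2/M genes it was -0.29 and -0.25, and the line difference passed for 3 of 54 as lower in A549 (1 to 7 without 1 Huh7 library). Replication-dependent histones had a median of -0.51 in A549 and -0.0015 in Huh7, where none passed, and the line difference passed for 1 of 49. Without replicate 3 of P. umbellatus in Huh7 the median was 0.22. There 8 of 48 histone genes passed as higher, against 1890 of all 13884 genes, which is a similar share. In that fit the line difference passed for 27 of 49 as lower in A549, against 1879 of all 14523 genes. Without replicate 1 of P. umbellatus in Huh7 the median was -0.17. For p53 targets outside cell death the medians were 0.26 and 0.19, with 7 higher and 6 lower of 49 tested in Huh7. The line difference passed for 10 of them as higher and 4 as lower in A549, and for 3 to 12 and 1 to 7 without 1 Huh7 library.

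For SREBP2 targets the medians were 0.24 in A549 and -0.20 in Huh7, where 8 of 25 passed as lower, against 8.76% of all genes. The line difference passed for 9 of 25, all higher in A549, against 3.42% of all genes. Without replicate 2 of P. umbellatus in Huh7 it passed for 11. HMGCS1, for one, had 0.37 ± 0.04 in A549 and -0.39 ± 0.12 in Huh7, a difference of 0.74 (adjusted p = 0.0119). NF-kB targets had a median of 0.28 in A549 and 0.73 in Huh7. There 14 were higher and 2 lower of 28 tested, against 6.09% and 8.76% of all genes. Their line difference passed for 2 of 30 as higher and 7 as lower in A549, against 3.42% and 4.03% of all genes. Without 1 Huh7 library these counts were 1 to 2 and 3 to 12. Immediate early genes had 0.18 and 0.78, with 17 higher and 3 lower of 30 tested in Huh7. None of the calls in Huh7 for these lists was kept without any 1 replicate of P. chinensis there. Without replicate 1 of P. umbellatus in Huh7, at most 1 member of each list passed there. The line difference of the immediate early genes passed for 1 of 30 as higher and 7 as lower in A549. Without 1 Huh7 library these counts were 1 to 3 and 4 to 12. MUC5AC, MUC5B and SPDEF did not pass the count filter in Huh7 cells.

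**Figure D4:**
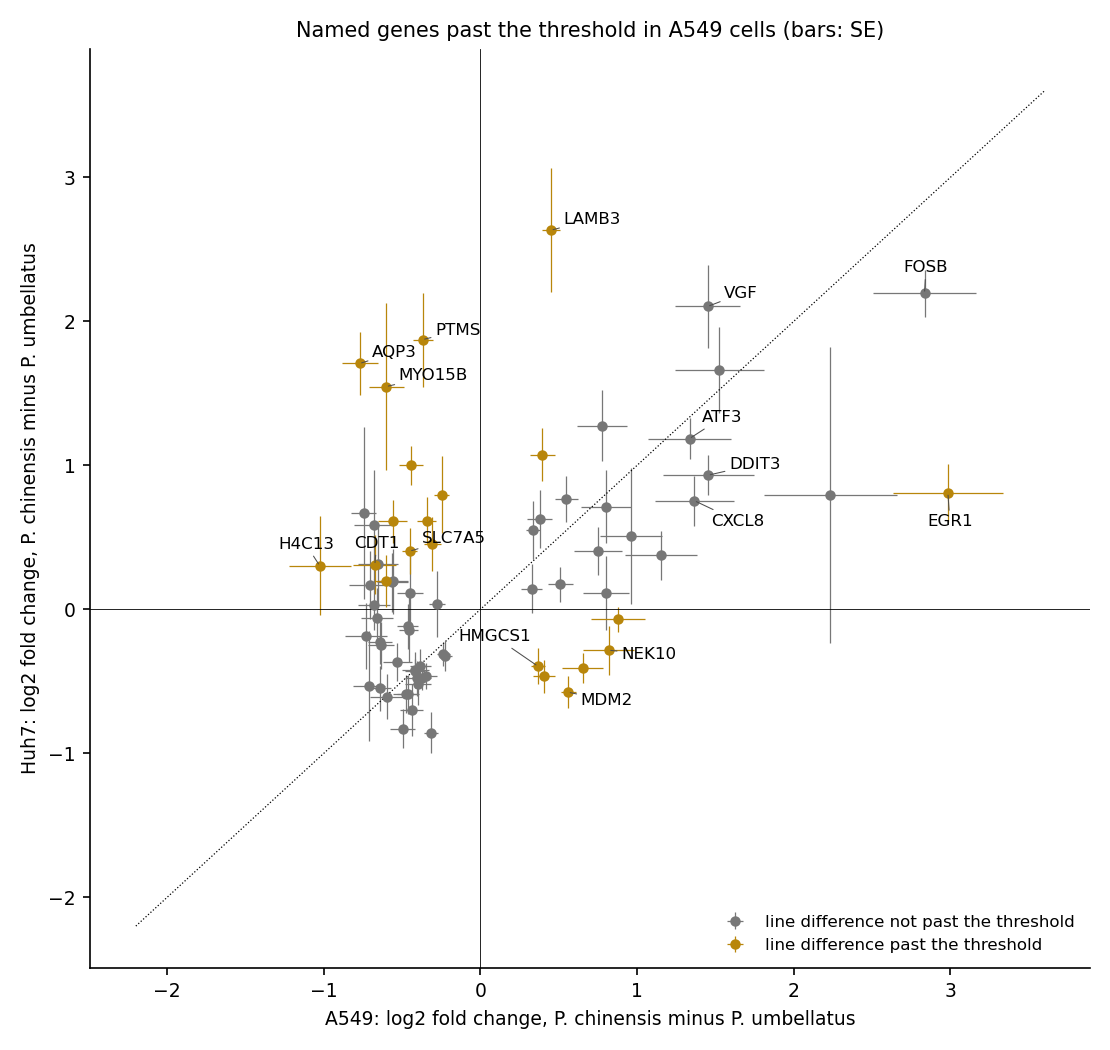
Log2 fold change, P. chinensis minus P. umbellatus, in A549 (horizontal) against Huh7 (vertical) for the 72 named genes that passed in A549 and were tested in Huh7, with bars for the SE and a dotted line where both are equal. The 21 genes whose difference between the lines passed are in gold. FOSB, VGF and ATF3 lie above 0 on both axes, MDM2 and HMGCS1 below 0 in Huh7, and AQP3, PTMS and LAMB3 far above the line.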

How the data were processed

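RNA of A549 and Huh7 cells was sequenced with a stranded total RNA kit after removal of ribosomal RNA. Per the submitters' processing notes and the study's methods, the authors checked reads with FastQC and estimated counts with kallisto against GRCh38.p13 transcripts (versions not given in the sources used here), and deposited whole-number estimated counts of each gene, unscaled for depth. Only protein-coding genes whose count averaged above 5 were kept. How transcripts were summed to genes is not given.

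The table held no other samples' columns (0 unused). Genes with a mean count above 5 over the 6 libraries were tested with edgeR 4.0.16 in R 4.3.3 (TMM factors, quasi-likelihood test, prior count 2, two-sided, Benjamini-Hochberg adjustment over all genes tested, threshold 0.05). The SE was taken from the fold change and the F statistic. CPM of all A549 libraries are on the scale of the 6-library factors. The interaction with Huh7 was fitted over 12 libraries. DESeq2 1.42.0 and limma 3.58.1 (voom) served as alternatives, beside another filter, normalization, a replicate block, thinned libraries, each library left out, and a GC and length correction chosen after seeing the data. The fits were tested on simulated data. Symbols came from a table of gene names, positions from GENCODE 44 (GRCh38), and promoters from RefSeq (GRCh38.p14).

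Named genes were the 15 largest fold changes per direction that passed, had 50 or more counts on average and did not overlap between herbs, genes the study names, up to 4 members of lowest p per list, and the largest line differences. Some genes that meet this rule are not reported here. Members and lists were chosen with earlier results of these data known. The 6 libraries held 8056191 to 17175624 counts each, so 3 counts, the floor used for a gene at 0, came to at most 0.354 CPM.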

Additional observations from a re-analysis of the deposited data

Results flagged for a closer look

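The difference between the herbs itself differed between A549 and Huh7 cells for 497 genes as higher and 586 as lower in A549, by the test of the interaction (edgeR, adjusted p below 0.05), and 28 of them are described here. Values are the log2 fold change in A549 minus that in Huh7, and the counting of genes over all libraries includes replicate 2 of P. umbellatus in Huh7, which stood apart. Each of the 28 passed without that library as well, in a fit where more genes passed (778 and 1040). Without 1 replicate of P. chinensis in Huh7, 78 to 112 genes passed as higher and 165 to 209 as lower. How the 28 fared in those fits is not given here.

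Higher in A549 were EGR1 (2.17), MDM2 (1.11), the kinase gene NEK10 (1.08), the estrogen-regulated gene GREB1 (1.04), and the cholesterol gene HMGCS1 (0.74). Genes that missed the threshold in A549 but whose line difference passed as higher were the apolipoprotein gene APOB (2.64), the endothelial marker PECAM1 (1.37), the heat shock gene HSPA4L (0.76), the zinc transporter SLC30A1 (0.39), E2F7 (0.66) and the transporter ABCC2 (0.48). APOB and PECAM1 rest on few counts in A549, with means of 8.83 and 22.2 a library.

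Lower in A549 were AQP3 (-2.50), the thymosin gene PTMS (-2.26), the myosin gene MYO15B (-2.12), LAMB3 (-2.11), the glypican gene GPC1 (-1.81), CCN1 (-1.46), H4C13 (-1.36), CYP1B1 (-1.20), CTSD (-1.06) and CDT1 (-1.01). So were TGFB1 (-0.98), SLC7A5 (-0.88), TK1 (-0.82), TUBB4B (-0.78), BIRC3 (-0.69) and, with no call in A549, ABCA3 (-1.04) and CALR (-0.43). LAMB3 and BIRC3 were higher with P. chinensis in A549 too, and the line difference says that the fold change in Huh7 was larger. AQP3 went in opposite directions, with -0.77 ± 0.11 in A549 and 1.71 ± 0.22 in Huh7 (log2 fold change and SE). GPC1 did not pass the count filter in Huh7 cells, so its line difference rests on few counts there.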

How the results depend on the processing

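The 229 genes kept the sign of their fold change in every setting that tested them. As the herbs did not overlap in these genes, the sign had little room to turn, so this does not show stability. The number of genes that passed moved. Against 65 higher and 164 lower genes, DESeq2 gave 127 and 361, all 12 A549 libraries in one model 113 and 302, a minimum log2 fold change of 1 gave 14 and 4, and upper quartile normalization 76 and 99. A GC and length correction, chosen after seeing the data, gave 64 and 303, of which 17.4% were higher. DESeq2's size factors (63 and 157), voom (58 and 166), no filter (63 and 169), a mean above 50 (80 and 164) and thinned libraries (55 and 161) stayed within 1.5 times. Fits without 1 library gave from 2 to 21 higher and from 2 to 75 lower genes, with 2 and 2 without replicate 3 of P. umbellatus, 7 and 21 without replicate 2, 21 and 72 without replicate 1, and 18 and 41, 21 and 75, and 9 and 26 without replicates 1, 2 and 3 of P. chinensis. A replicate block gave 13 and 31 genes. Deviations of same-numbered libraries correlated at -0.0241, -0.00466 and 0.0161, and not every library correlated best with its own number, so the numbers were not taken as pairs. The number of genes with a line difference, 497 higher and 586 lower in A549, was 1121 and 1153 with DESeq2, 119 and 259 with a replicate block within each line, and from 78 to 1331 and from 165 to 1879 without 1 library, lowest without replicate 3 of P. chinensis and highest without replicate 3 of P. umbellatus in Huh7. Without the Huh7 replicate that stood apart it was 778 and 1040. Reversed signs were found for genes with no call. MYC had 0.0049 with upper quartile normalization and from -0.129 to 0.0236 without 1 library. Without 1 library MT-ATP8 ran from -0.343 to 0.0895 and MT-ND4 from -0.42 to 0.0739, each above 0 only without replicate 1 of P. umbellatus, and E2F7 from -0.134 to 3.93e-05. The cause of these moves was not tested. Genes near the count filter are limited by depth.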

Other observations

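Some genes outside the lists and the naming rule also passed, and those given here were chosen after their values were seen. ID3 and ID2, inhibitors of bHLH differentiation factors, had 79.8, 75.7 and 83.97 CPM and 118, 113 and 129 CPM with P. chinensis, 51.5, 46.7 and 50.6 CPM and 82.8, 66.2 and 85.7 CPM with P. umbellatus, and 70.4, 75.7 and 90.1 CPM and 98.8, 95.4 and 94.5 CPM in control cells. Their log2 fold changes were 0.68 ± 0.07 and 0.62 ± 0.10 (SE), and the P. umbellatus libraries were the lowest of the 3 groups. ARC, an activity-regulated immediate early gene, had 7.20, 3.43 and 8.96 CPM against 1.61, 0.650 and 1.13 CPM (log2 fold change 2.32 ± 0.41 (SE), adjusted p = 0.0328). EPPK1, the cytolinker epiplakin, had 6.26, 5.84 and 6.62 CPM against 2.03, 1.39 and 1.63 CPM (log2 fold change 1.77 ± 0.25 (SE), adjusted p = 0.0166), and ACHE, acetylcholinesterase, 2.60, 2.02 and 2.24 CPM against 0.537, 0.465 and 0.5002 CPM (log2 fold change 1.84 ± 0.34 (SE), adjusted p = 0.036). All 3 are low in level, with means of 39.000, 40.7 and 14 counts a library.

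Among abundant genes, GPRC5A, a retinoic acid-induced receptor of lung epithelium, had 1053, 1077 and 1095 CPM with P. chinensis, 756, 862 and 838 CPM with P. umbellatus and 718, 742 and 737 CPM in control cells (log2 fold change 0.39 ± 0.05 (SE), adjusted p = 0.0166). CA12, a carbonic anhydrase, had 1038, 1088 and 900.5 CPM, 1399, 1491 and 1419.7 CPM and 1409, 1288 and 1290.3 CPM in the same order (log2 fold change -0.51 ± 0.07 (SE), adjusted p = 0.0163). AGR2, a disulfide isomerase needed for mucin folding, had 52.1, 58.6 and 52.6 CPM, 70.6, 73.7 and 69.3 CPM and 91.3, 80.3 and 71.7 CPM (log2 fold change -0.39 ± 0.07 (SE), adjusted p = 0.0379), so that P. chinensis lay below P. umbellatus as for MUC5AC and MUC5B. In each of the 3 genes the herbs did not overlap.

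KBTBD11, a kelch and BTB domain gene, had 0 counts in all 3 P. chinensis libraries and 134, 33 and 33 counts in those of P. umbellatus. Against a floor of 3 counts per library its level was at least 14.3-fold lower with P. chinensis. It was also at 0 in all 3 B. chinense libraries and in 1 of the control libraries.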
